A study of Mus musculus with 8 samples.

Results

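The 10 cell fate and polarity determinants described here are Numb, Numbl, Pard3, Pard6a, Pard6g, Prkci, Prkcz, Llgl1, Scrib and Gpsm2. They were chosen by gene symbol: every probe set of the array whose RefSeq transcript belongs to one of these genes was taken, and probe sets with identical values were counted once. This gave 18 probe sets with 11 distinct profiles, among 18294 named probe sets with 16105 distinct profiles and 15653 named genes. Numb, Numbl, Pard6a, Pard6g, Prkci, Prkcz, Llgl1, Scrib and Gpsm2 have 1 profile each, and Pard3 has 2.

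Polarized cells sort proteins to opposite sides of the cortex, and a cell that divides across that axis can pass different determinants to its daughters. The PAR complex, built from PAR-3, PAR-6 and atypical protein kinase C, marks one cortical domain and drives Lethal giant larvae and Numb proteins from it by phosphorylation, while Scribble acts with Lethal giant larvae on the opposite domain. Numb proteins antagonize Notch signalling, and the LGN protein encoded by Gpsm2 links the cortex to the mitotic spindle.

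Total RNA of mouse fibroblast lines was measured on 8 Affymetrix arrays, 3 of Ind-8, 3 of Con-3 and 2 of tI-3. Ind-8 is a p53-null line with a mouse p53 cDNA under a zinc-responsive metallothionein promoter. Con-3 is p53-null without that cDNA. The labels name it the parent of Ind-8, whereas the study's methods describe a vector control. The tI-3 line derives from Ind-8 and adds a constitutive IMPDH II transgene. All cultures grew for 48 h with 65 µM ZnCl2 and with puromycin at 5 µg/ml, and tI-3 medium alone contained G418. The study describes asymmetric self-renewal for Ind-8 in zinc, and symmetric self-renewal for Con-3 and tI-3. Each line is 1 clone, so line, transgene, self-renewal state and, for tI-3, the G418 cannot be told apart. All values are RMA intensities on the log2 scale, so that a difference of 1 is a doubling, and a level cannot be compared between probe sets.

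Array medians were 6.17, 6.12 and 6.19 in Ind-8, 6.14, 6.15 and 6.17 in Con-3, and 6.16 and 6.13 in tI-3. Some arrays stood apart in their control probe sets. The mean of the 14 hybridization controls was 9.04, 8.98 and 9.03 in Ind-8, 9.05, 9.16 and 9.62 in Con-3, and 9.43 and 9.71 in tI-3. Both tI-3 arrays and Con-3 replicate 3 thus lay above the other arrays. The 18S ribosomal RNA controls averaged 10.63 on Con-3 replicate 3 and between 5.58 and 6.46 on the other arrays. The first quartile of all probe sets ran from 4.19 to 4.25 in Ind-8, from 4.23 to 4.38 in Con-3 and from 4.39 to 4.43 in tI-3. Within a hybridization level no array of Ind-8 can be set beside an array of tI-3, so for that pair level and line cannot be told apart except through Con-3. For tI-3 against Con-3, a fit with the level as a block sets the tI-3 arrays against Con-3 replicate 3 alone. The plot of controls by array shows these values. With so few arrays every value has limited precision, and a p-value here measures only the spread between cultures of 1 clone.

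**Figure D1:**
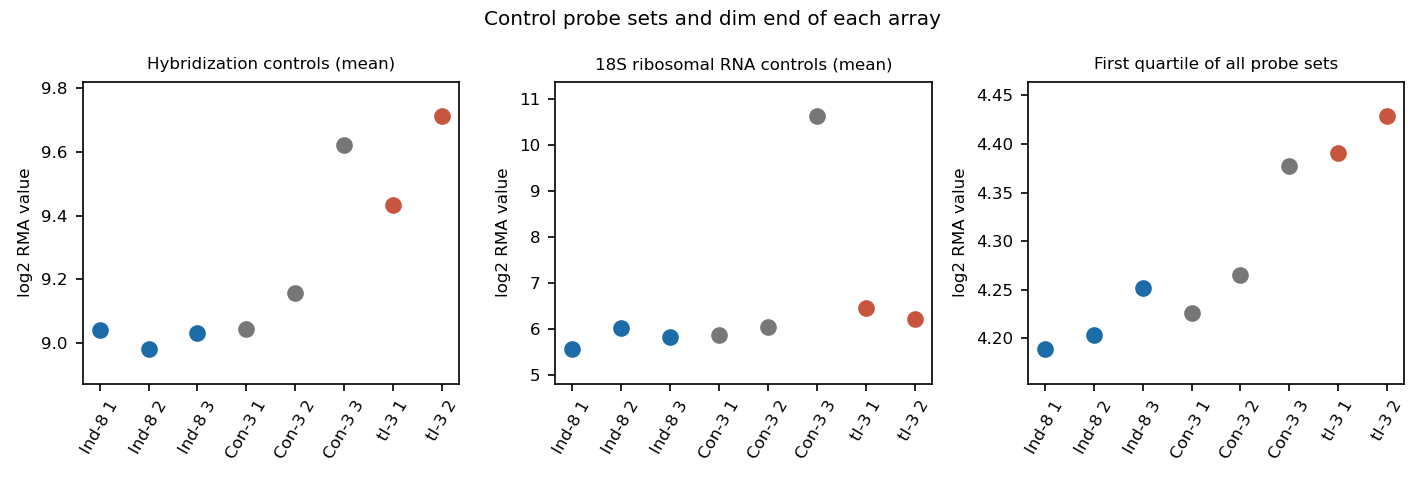
Mean log2 value of the hybridization controls (left), mean log2 value of the 18S ribosomal RNA controls (middle) and first quartile of all probe sets (right), 1 point per array. Con-3 replicate 3 and both tI-3 arrays lie highest in hybridization controls, at 9.62, 9.43 and 9.71.

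The labels were checked first on the engineered genes. Cdkn1a, a direct p53 target, was higher by 3.81 in Ind-8 than in Con-3 (limma, Benjamini-Hochberg adjusted p = 1.9e-08) and by 1.59 in tI-3 than in Con-3 (limma, adjusted p = 1.9e-05). Trp53 read 5.68, 5.87 and 5.80 in Ind-8, 5.21, 5.29 and 5.27 in Con-3, and 5.60 and 5.69 in tI-3. Con-3 thus had the lowest values, without overlap. Impdh2 read 12.16, 12.19 and 12.22 in Ind-8, 12.51, 12.56 and 12.53 in Con-3, and 12.34 and 12.38 in tI-3. The tI-3 arrays lay between the other lines. Ind-8 differed from tI-3, its derivative with the transgene, by -0.17, which was not called in this fit or in any of 16 alternatives (limma, Benjamini-Hochberg adjusted p = 0.163). The difference of -0.17 between tI-3 and Con-3 was not called either (limma, Benjamini-Hochberg adjusted p = 0.18). For Ind-8 against Con-3 the Impdh2 difference was -0.34, called in this fit and in all 16 alternatives (limma, Benjamini-Hochberg adjusted p = 0.0108). Whether this probe set reads the IMPDH II transgene was not tested. The label checks also held the metallothionein genes Mt1 and Mt2. Mt1 was called in no comparison. Mt2 was called for tI-3 against Con-3 alone, at -0.39 (limma, Benjamini-Hochberg adjusted p = 0.0248), and that call was lost in 4 of 16 alternatives.

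Values of 4 marker lists are given beside the fibroblast label. Levels cannot be compared between probe sets, so a place above or under the first quartile does not settle the identity. Of 13 fibroblast marker probe sets, 11 had a mean above the first quartile of all probe sets, 4.30, and Thy1 was among those under it. Of the neural marker probe sets 6 of 7 were at or under that quartile, while Nes ranged from 6.28 to 7.05. Among the epithelial markers 4 of 8 were at or under it, while Krt19 ranged from 9.14 to 10.48. Among haematopoietic and endothelial markers 4 of 6 were at or under it, and Cd34 ranged from 6.87 to 9.00. The mean over the epithelial list was 4.77 to 5.13 across arrays, and over the neural list 4.08 to 4.26.

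A probe set is called here when limma, fitted to all 8 arrays, gives a Benjamini-Hochberg adjusted p under 0.05 over 22523 probe sets. The comparison of Ind-8 with Con-3 sets the line with restored p53 beside the p53-null line. Among the 11 profiles 2 were called higher in Ind-8, against 10.9% of all probe sets, and 0 lower, against 11.0%. At an unadjusted limma p under 0.05, in either direction, the count was 3 of 11. The share of all probe sets at that threshold was not counted. Among the 101 profiles of the 8 pathway lists described below it was reached by 37. The comparison of Ind-8 with tI-3, both with p53, sets the line without the IMPDH II transgene beside the line with it. It gave 2 called higher in Ind-8, against 15.6%, and 3 lower, against 15.5%. Its unadjusted count, in either direction, was 5 of 11, beside 47 of 101 for the pathway lists. The comparison of tI-3 with Con-3 completes the set, with 4 called higher in tI-3, against 10.2%, and 0 lower, against 15.1%. There the unadjusted count, in either direction, was 5 of 11, beside 54 of 101 for the pathway lists. These member counts changed when single arrays were left out and when the hybridization level was taken as a block. For Ind-8 against Con-3 limma called 0 members without Con-3 replicate 1 or Ind-8 replicate 3 and 1 without any other array. Of the 5 called for Ind-8 against tI-3 the count was 3 without tI-3 replicate 1 and 2 without tI-3 replicate 2. Of the 4 members called for tI-3 against Con-3 the count was 1 without Con-3 replicate 2 or tI-3 replicate 2, and 2 without Con-3 replicate 1 or tI-3 replicate 1. In a fit that took the hybridization-control level of the arrays as a block, 1 member was called in each comparison. Over all probe sets the calls in that fit were 16.2% for Ind-8 against Con-3, 3.14% for Ind-8 against tI-3, with 496 higher and 212 lower, and 13.6% for tI-3 against Con-3, beside 21.9%, 31.1% and 25.4% without the block. All 11 profiles have means above the first quartile of all probe sets. In a fit of the probe sets above the 25th percentile, 30.2%, 39.4% and 34.1% were called in the same order, beside 2, 5 and 4 members. The 3 comparisons share arrays, and no difference between comparisons was tested.

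The rank product test, which the study's methods name, called 0 of the 11 profiles in each comparison at a percentage of false positives under 0.05. Over all probe sets it called 3.61% for Ind-8 against Con-3, 1.98% for Ind-8 against tI-3 and 2.29% for tI-3 against Con-3. At an unadjusted rank product p under 0.05 the members' counts were 1, 4 and 3 of 11 in that order. Among the 101 profiles of the 8 pathway lists they were 17, 22 and 20, and over all probe sets they were not counted. Among the members limma called 2, 5 and 4.

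Changes were small. The largest member difference in size was 0.43 between Ind-8 and Con-3, -0.73 between Ind-8 and tI-3, and 0.74 between tI-3 and Con-3. Median differences over the members were -0.01, -0.13 and 0.11, beside -0.06, -0.06 and 0.04 over all probe sets. All 11 profiles had means over the 8 arrays above the first quartile of all probe sets, 4.30, but the Ind-8 mean of Prkcz, 4.28, lay under it. RNA came from whole cultures, so fewer cells that express a gene and less RNA per cell cannot be told apart.

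**Figure D2:**
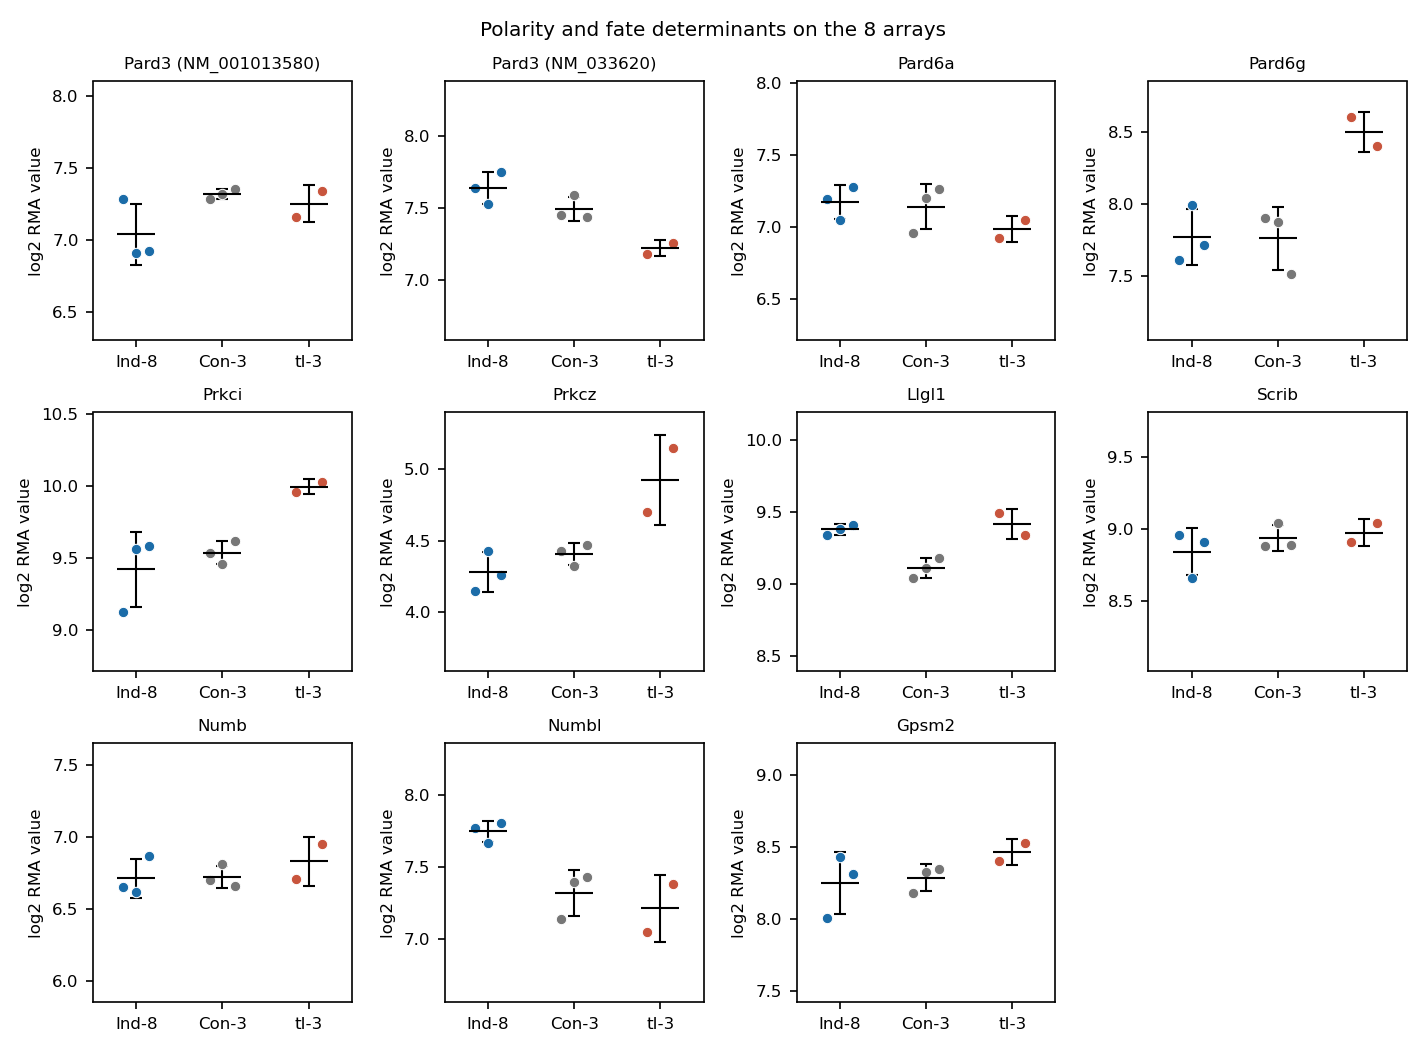
Log2 RMA value of each of the 11 distinct profiles on each array, grouped by line. The tI-3 arrays of Pard6g, at 8.60 and 8.40, lie above all other arrays of that gene.

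Pard6g encodes a PAR-6 adaptor that ties atypical protein kinase C to Cdc42. Its values were 7.61, 7.99 and 7.71 in Ind-8, 7.90, 7.87 and 7.51 in Con-3, and 8.60 and 8.40 in tI-3. Both tI-3 arrays lay above every other array, and Ind-8 and Con-3 overlapped. Mean levels were 7.77 ± 0.199 (SD, n = 3) in Ind-8, 7.76 ± 0.214 (SD, n = 3) in Con-3 and 8.50 ± 0.137 (SD, n = 2) in tI-3. Expression was 1.67-fold higher in tI-3 than in Con-3, a log2 difference of 0.74 with a 95% confidence interval of 0.40 to 1.07 (limma, Benjamini-Hochberg adjusted p = 0.0052). Ind-8 differed from tI-3 by -0.73, with an interval of -1.07 to -0.40 (limma, Benjamini-Hochberg adjusted p = 0.0059). Both calls held in all 16 alternative fits, with adjusted limma p-values (Benjamini-Hochberg) of 0.0021 to 0.049 against Con-3 and 0.002 to 0.047 against Ind-8. Between Ind-8 and Con-3 the difference was 0.01, with an interval of -0.29 to 0.31. In the fit with the hybridization block, the tI-3 difference from Con-3 was 0.99 and the Ind-8 difference from tI-3 was -1.10. Both rest on Con-3 replicate 3, the only Con-3 array at the level of tI-3 and the lowest for Pard6g, at 7.51. The block is thus no independent support.

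Pard6a encodes another PAR-6 adaptor, and 3 of its transcripts share 1 profile. It ranged from 6.92 to 7.28 over the 8 arrays, where Ind-8 and tI-3 met at 7.05 and the other pairs of lines overlapped. No comparison was called, with differences of 0.03 for Ind-8 against Con-3, 0.19 for Ind-8 against tI-3 and -0.16 for tI-3 against Con-3. The bounds of the intervals ran from -0.42 to 0.45.

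Prkci encodes atypical protein kinase C iota, the kinase of the complex. It read 9.12, 9.56 and 9.58 in Ind-8, 9.53, 9.46 and 9.62 in Con-3, and 9.96 and 10.03 in tI-3. As with Pard6g, the tI-3 arrays were the highest, and Ind-8 overlapped Con-3. The difference between tI-3 and Con-3 was 0.46, or 1.37-fold, with an interval of 0.15 to 0.77 (limma, Benjamini-Hochberg adjusted p = 0.037). Ind-8 differed from tI-3 by -0.58, with an interval of -0.89 to -0.26 (limma, Benjamini-Hochberg adjusted p = 0.012). Without tI-3 replicate 2 the latter was not called (limma, Benjamini-Hochberg adjusted p = 0.0889). The call against Con-3 was lost without Con-3 replicate 1 or Con-3 replicate 2, at limma adjusted p-values (Benjamini-Hochberg) of 0.0731 and 0.104. The differences there were 0.45 and 0.42. It was also lost without tI-3 replicate 1 or tI-3 replicate 2, at differences of 0.49 and 0.42. With the hybridization block both calls were lost, at differences of 0.38 from Con-3 and -0.46 for Ind-8 against tI-3. Over the 16 alternatives the limma adjusted p (Benjamini-Hochberg) ran from 0.008 to 0.24 against Con-3 and from 0.0069 to 0.35 for Ind-8 against tI-3.

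Prkcz encodes atypical protein kinase C zeta, the related kinase, and its mean stood at the 29.0 percentile of all probe sets. Its values were 4.15, 4.43 and 4.26 in Ind-8, 4.43, 4.32 and 4.47 in Con-3, and 4.70 and 5.14 in tI-3. The tI-3 arrays again lay above the others, with the wider gap on replicate 2. The Ind-8 mean of 4.28 lay under the first quartile of all probe sets, 4.30, so both differences that involve Ind-8 start from the dim end of the arrays. The tI-3 line exceeded Con-3 by 0.51, or 1.42-fold, with an interval of 0.20 to 0.82 (limma, Benjamini-Hochberg adjusted p = 0.022). For Ind-8 against tI-3 the difference was -0.63, with an interval of -0.94 to -0.32 (limma, Benjamini-Hochberg adjusted p = 0.0077). Without tI-3 replicate 2 the differences were 0.29 against Con-3 and -0.41 for Ind-8 against tI-3, and neither was called, at limma adjusted p-values (Benjamini-Hochberg) of 0.228 and 0.0878. The call against Con-3 was also lost without Con-3 replicate 2, at a difference of 0.47 (limma, Benjamini-Hochberg adjusted p = 0.0716). After a further quantile normalization it was lost at a difference of 0.38 (limma, Benjamini-Hochberg adjusted p = 0.073). With the hybridization block both calls were lost, at differences of 0.44 against Con-3 and -0.54 for Ind-8 against tI-3. Its limma adjusted p (Benjamini-Hochberg) over the alternatives was 0.0097 to 0.23 against Con-3 and 0.0056 to 0.27 for Ind-8 against tI-3. Among the 5631 dimmest probe sets the median difference was 0.07 for tI-3 against Con-3 and -0.14 for Ind-8 against tI-3. The part of this shift at the dim end in the Prkcz values was not tested.

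Pard3 encodes the PAR-3 scaffold that recruits PAR-6 and the kinase to the cortex. Its transcript NM_033620 read 7.64, 7.53 and 7.75 in Ind-8, 7.45, 7.59 and 7.44 in Con-3, and 7.18 and 7.26 in tI-3. Both tI-3 arrays lay under every array of the other lines, and Con-3 overlapped Ind-8. Ind-8 exceeded tI-3 by 0.41, or 1.33-fold, with an interval of 0.19 to 0.64 (limma, Benjamini-Hochberg adjusted p = 0.014). Without tI-3 replicate 1 or 2 the difference was 0.38 or 0.45 and not called, at limma adjusted p-values (Benjamini-Hochberg) of 0.0739 and 0.0589. After a further quantile normalization it was smaller, at 0.26, and not called (limma, Benjamini-Hochberg adjusted p = 0.0897). With the hybridization block it was 0.33 and not called (limma, Benjamini-Hochberg adjusted p = 0.348). The lowest over the alternatives was 0.012 (limma, Benjamini-Hochberg adjusted p). This profile differed by -0.27 for tI-3 against Con-3 and was not called (limma, Benjamini-Hochberg adjusted p = 0.083).

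The other Pard3 profile, of NM_001013580 and NM_001122850, did not follow the same pattern. It read 7.28, 6.91 and 6.92 in Ind-8, 7.28, 7.32 and 7.35 in Con-3, and 7.16 and 7.34 in tI-3. Ind-8 replicates 2 and 3 were the lowest arrays, and Ind-8 replicate 1 lay among those of the other lines. No comparison was called, and Ind-8 against Con-3 gave -0.28 with an interval of -0.54 to -0.03 (limma, Benjamini-Hochberg adjusted p = 0.11). Without Ind-8 replicate 1 this became -0.41 and was called (limma, Benjamini-Hochberg adjusted p = 0.0215), and Ind-8 against tI-3 became -0.34 and was called (limma, Benjamini-Hochberg adjusted p = 0.0491). Over all alternatives the limma adjusted p (Benjamini-Hochberg) ran from 0.021 to 0.31 for Ind-8 against Con-3 and from 0.049 to 0.74 for Ind-8 against tI-3. The difference in change between the Pard3 profiles was not tested.

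Llgl1 encodes a Lethal giant larvae protein, a substrate of atypical protein kinase C that acts on the domain opposite the PAR complex. It read 9.34, 9.38 and 9.41 in Ind-8, 9.04, 9.11 and 9.18 in Con-3, and 9.49 and 9.34 in tI-3. All Con-3 arrays lay under all arrays of the lines that carry the p53 cDNA, and those lines overlapped. The difference between Ind-8 and Con-3 was 0.27, or 1.20-fold, with an interval of 0.08 to 0.46 (limma, Benjamini-Hochberg adjusted p = 0.049). Between tI-3 and Con-3 it was 0.30, or 1.23-fold, with an interval of 0.09 to 0.52 (limma, Benjamini-Hochberg adjusted p = 0.042). Both calls lie close to the threshold. For Ind-8 against Con-3 the 16 alternatives are not all distinct. The compared lines only and the removal of either tI-3 array coincide, and so do the hybridization block and the removal of Con-3 replicate 3. Counting each, the Ind-8 call was lost in 14 of 16 alternatives, while the difference stayed between 0.23 and 0.30. Among these were the removals of any 1 of the 8 arrays, at limma adjusted p-values (Benjamini-Hochberg) of 0.0547 to 0.126. The tI-3 call was lost in 9 of 16, with differences of 0.23 to 0.41 over all 16. Among these were the removals of any array other than Con-3 replicate 3, at 0.0526 to 0.221 (limma, Benjamini-Hochberg adjusted p). Over all alternatives these adjusted limma p-values (Benjamini-Hochberg) ran from 0.034 to 0.13 for Ind-8 and from 0.012 to 0.28 for tI-3.

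Scrib encodes the Scribble scaffold of the basolateral domain. It ranged from 8.66 to 9.04 over the 8 arrays with all lines overlapping. Differences were -0.09 for Ind-8 against Con-3, -0.13 for Ind-8 against tI-3 and 0.04 for tI-3 against Con-3. The bounds of the intervals ran from -0.39 to 0.30.

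Numbl encodes Numb-like, an adaptor related to Numb. Its values were 7.77, 7.67 and 7.81 in Ind-8, 7.14, 7.40 and 7.43 in Con-3, and 7.05 and 7.38 in tI-3. Every Ind-8 array lay above every array of the other lines, which overlapped each other. Mean levels were 7.75 ± 0.0746 (SD, n = 3) in Ind-8, 7.32 ± 0.160 (SD, n = 3) in Con-3 and 7.22 ± 0.229 (SD, n = 2) in tI-3. Against Con-3 the Ind-8 level was 1.34-fold higher, a log2 difference of 0.43 with an interval of 0.17 to 0.68 (limma, Benjamini-Hochberg adjusted p = 0.024). Against tI-3 it was 1.45-fold higher, with 0.54 and an interval of 0.25 to 0.82 (limma, Benjamini-Hochberg adjusted p = 0.012). For tI-3 against Con-3 the difference was -0.11, with an interval of -0.40 to 0.18. The call against Con-3 was lost without Con-3 replicate 1, Ind-8 replicate 1 or Ind-8 replicate 3, at limma adjusted p-values (Benjamini-Hochberg) of 0.0728, 0.0646 and 0.0692, and after a further quantile normalization at 0.0616. The call against tI-3 was lost without tI-3 replicate 1 at 0.0979, after quantile normalization at 0.0842 and with the hybridization block at 0.12 (limma, Benjamini-Hochberg adjusted p). Over the 16 alternatives the limma adjusted p (Benjamini-Hochberg) was 0.017 to 0.073 against Con-3 and 0.009 to 0.12 against tI-3. The Ind-8 difference ran from 0.34 to 0.48 against Con-3 and from 0.37 to 0.70 against tI-3, where it was 0.69 with the hybridization block and 0.37 without tI-3 replicate 1.

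Numb encodes an endocytic adaptor that limits Notch signalling in the daughter cell that inherits it. Its values lay between 6.62 and 6.95, with 2 transcripts sharing 1 profile and all lines overlapping. The differences were -0.01 for Ind-8 against Con-3, -0.12 for Ind-8 against tI-3 and 0.11 for tI-3 against Con-3. The interval for Ind-8 against Con-3 was -0.24 to 0.22.

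Gpsm2 encodes LGN, which binds cortical G protein alpha subunits and the spindle protein NuMA. It ranged from 8.01 to 8.53. Both tI-3 arrays, at 8.40 and 8.53, lay above every Con-3 array, while Ind-8 overlapped both other lines. No comparison was called, with -0.04 for Ind-8 against Con-3, -0.22 for Ind-8 against tI-3 and 0.18 for tI-3 against Con-3. For Ind-8 against tI-3 the interval was -0.51 to 0.08.

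**Figure D3:**
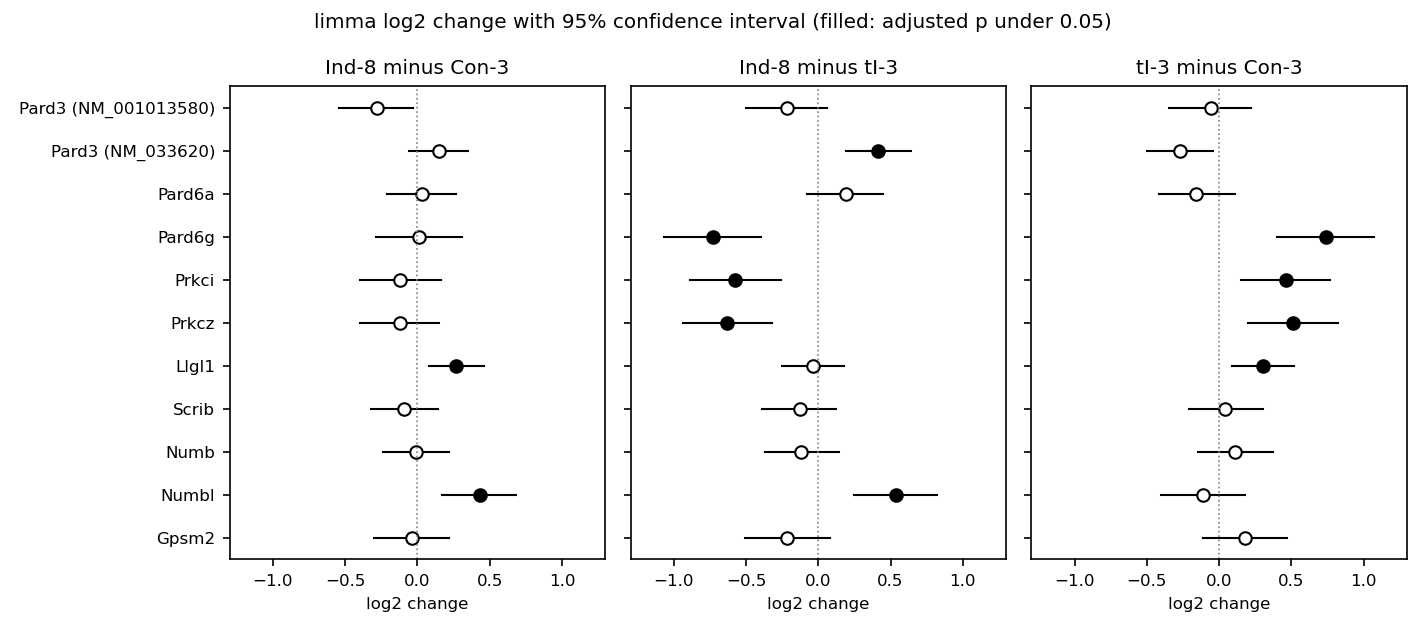
Log2 difference of each profile in the 3 comparisons, with 95% confidence intervals from limma. Numbl lies above 0 in both comparisons of Ind-8, at 0.43 and 0.54, and Pard6g lies farthest from 0 in both comparisons of tI-3, at -0.73 and 0.74.

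Upstream sequence is shown for Numbl, higher in Ind-8 than in both other lines, for Llgl1, lower in Con-3 than in both others, and for Prkci, higher in tI-3 than in both others, as examples of the 3 patterns. RefSeq promoter entries of the assembly GRCm38.p6 matched 8 of the 10 genes, all but Pard6g and Scrib. Each line holds the 250 bases before the annotated start, on the + strand: chr7:27258511-27258760 for Numbl, chr11:60699450-60699699 for Llgl1 and chr3:30995521-30995770 for Prkci. Capitals mark a GC box (GGGCGG) or a CCAAT box (CCAAT), searched on both strands.
Numbl: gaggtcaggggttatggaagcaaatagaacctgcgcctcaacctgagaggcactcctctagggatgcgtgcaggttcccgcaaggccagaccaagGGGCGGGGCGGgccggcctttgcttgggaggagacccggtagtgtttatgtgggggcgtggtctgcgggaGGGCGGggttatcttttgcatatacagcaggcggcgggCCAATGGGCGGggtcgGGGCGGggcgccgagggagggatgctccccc
Llgl1: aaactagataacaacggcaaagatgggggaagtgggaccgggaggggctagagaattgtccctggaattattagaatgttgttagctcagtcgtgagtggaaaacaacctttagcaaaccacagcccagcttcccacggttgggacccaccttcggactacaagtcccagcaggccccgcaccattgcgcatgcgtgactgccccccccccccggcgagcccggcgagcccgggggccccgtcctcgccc
Prkci: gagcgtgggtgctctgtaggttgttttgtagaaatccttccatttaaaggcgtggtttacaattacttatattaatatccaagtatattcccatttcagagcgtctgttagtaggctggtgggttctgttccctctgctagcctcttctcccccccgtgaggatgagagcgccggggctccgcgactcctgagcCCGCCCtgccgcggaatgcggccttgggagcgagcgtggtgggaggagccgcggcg
Numbl holds 5 GC boxes, of which those starting at -155 and -150 overlap, and 1 CCAAT box that adjoins the GC box at -42. Prkci holds 1 GC box, on the minus strand, and Llgl1 holds 0 matches to either box. The p53 response element decamer, searched by its consensus, had 0 matches in each of the 3 sequences. Over 32817 mouse promoters of this length a GC box is present in 32.7%, a CCAAT box in 33.8% and the p53 decamer in 7.12%. GC content was 66.0% for Numbl, 60.8% for Llgl1 and 56.4% for Prkci, beside a median of 52.4% over all promoters. These matches describe letters and were not tested as sites. In the same annotation Prkci and Gpsm2 lie on chromosome 3, and Pard3 and Pard6a on chromosome 8.

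The named genes with the most similar profile were sought for Pard6g, the member with the smallest p of limma's test over the 3 lines. Likeness was the root mean square difference of the 8 values, each centred on its gene's mean, over 16104 other named profiles. Cyp7b1 was closest at 0.0873, followed by Stmn2 at 0.104, Nab1 at 0.109, Phf3 at 0.11 and Casd1 at 0.114. Cyp7b1 averaged 5.35 in Ind-8, 5.44 in Con-3 and 6.15 in tI-3, so tI-3 was high as for Pard6g.

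Other genes of these pathways came from 8 lists with 104 genes, of which 95 were found with 101 distinct profiles. For Ind-8 against Con-3 limma called 15 higher and 8 lower. For Ind-8 against tI-3 it called 22 higher and 12 lower, and for tI-3 against Con-3 12 higher and 24 lower. In either direction these calls made up 22.8%, 33.7% and 35.6% of the profiles, beside 21.9%, 31.1% and 25.4% of all probe sets, so the shares in both comparisons of Ind-8 were near the background. With the hybridization block the calls numbered 20, 3 and 17, in place of 23, 34 and 36. Without Con-3 replicate 2 the count for Ind-8 against Con-3 was 15. Without tI-3 replicate 1 or 2 it was 22 or 19 for Ind-8 against tI-3, and 20 or 21 for tI-3 against Con-3. The counts per list that follow come from the fit without the block. Median differences over the lists were -0.04, 0.07 and 0.02, beside -0.06, -0.06 and 0.04 over all probe sets. The rank product test called 6 higher and 1 lower for Ind-8 against Con-3, and 3 for Ind-8 against tI-3, each of them higher. It called 0 for tI-3 against Con-3, where limma called 36, and 20 had an unadjusted rank product p under 0.05.

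**Figure D4:**
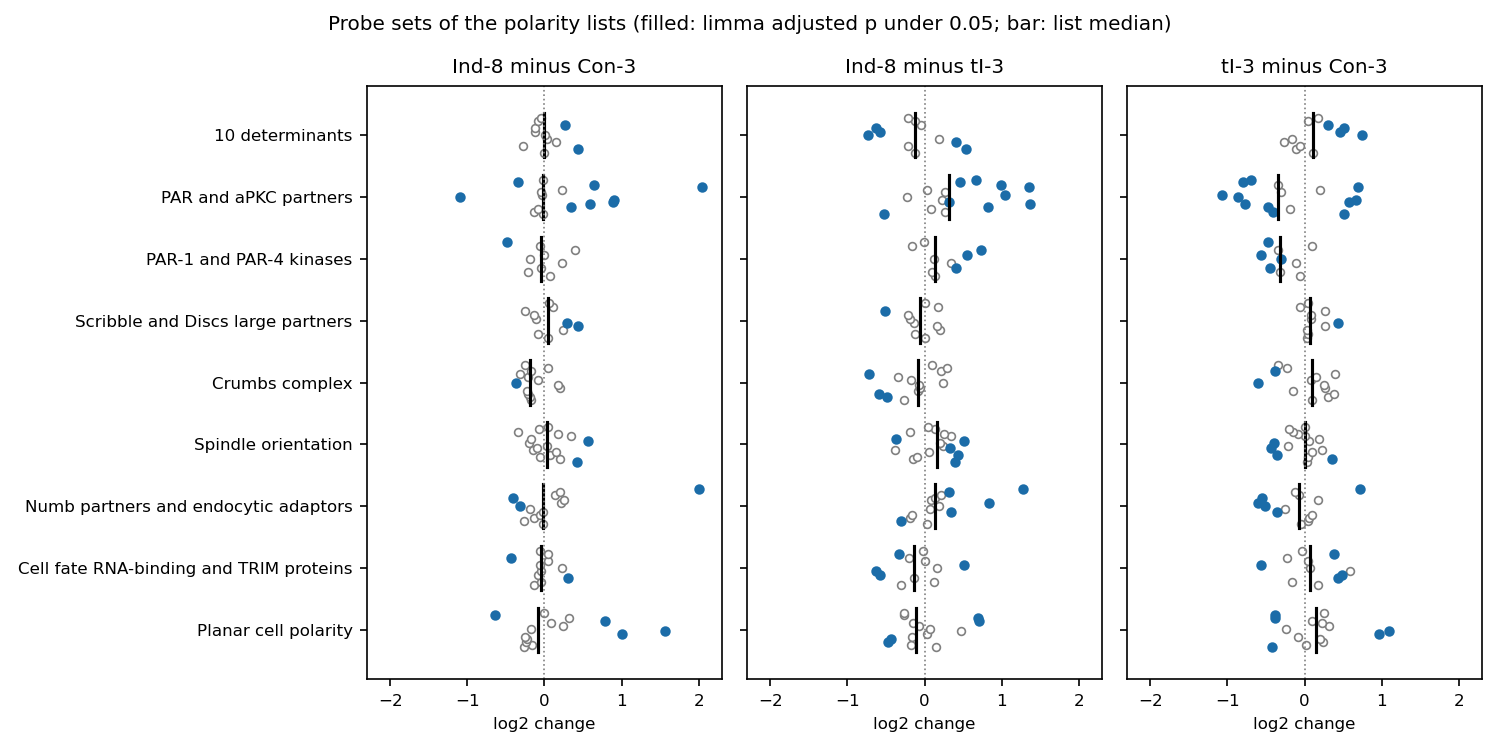
Log2 difference of each profile of the 10 determinants and of the 8 pathway lists in the 3 comparisons, with filled points for profiles called by limma and bars at the list medians. In the limma fit without the hybridization block, the list of PAR and atypical protein kinase C partners has the most calls. They are 8 of 15 for Ind-8 against Con-3, 9 of 15 for Ind-8 against tI-3 and 11 of 15 for tI-3 against Con-3. With the block the 8 lists together had 3 calls for Ind-8 against tI-3.

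Where a listed gene has more than 1 profile, the values printed for it are those of the profile with the largest change. Partners of the PAR complex and its kinase held 15 profiles of 13 genes. They gave 6 higher and 2 lower for Ind-8 against Con-3, 8 and 1 for Ind-8 against tI-3, and 4 and 7 for tI-3 against Con-3. Median differences of this list were -0.02, 0.32 and -0.35. F11r, a junctional adhesion molecule that binds PAR-3, read 7.35, 7.13 and 6.44 in Ind-8 and 5.01, 4.74 and 5.05 in Con-3. The lines did not overlap, and the difference was 2.04 (limma, Benjamini-Hochberg adjusted p = 1.1e-04). Tiam1, a Rac exchange factor that binds PAR-3, read 9.07, 8.56 and 8.55 in Ind-8 and 7.42 and 7.30 in tI-3. It differed by 1.37 without overlap (limma, Benjamini-Hochberg adjusted p = 2.9e-04). Wwc1, the KIBRA scaffold that binds atypical protein kinase C, differed by -1.10 between Ind-8 and Con-3 (limma, Benjamini-Hochberg adjusted p = 7.5e-04). Pdpk1, the kinase that phosphorylates the activation loop of protein kinase C, read 6.36 and 5.60 in tI-3 and 7.26, 6.79 and 7.10 in Con-3. The difference was -1.07 (limma, Benjamini-Hochberg adjusted p = 0.0039).

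PAR-1 and PAR-4 kinases and their cofactors, with 9 profiles, gave 1 call, lower, for Ind-8 against Con-3, 3 calls, all higher, for Ind-8 against tI-3, and 4 calls, all lower, for tI-3 against Con-3. Cab39l, a scaffold of the Stk11 complex, differed by -0.49 between Ind-8 and Con-3 (limma, Benjamini-Hochberg adjusted p = 0.0088). Strada, a pseudokinase that activates the PAR-4 kinase Stk11, differed by -0.56 between tI-3 and Con-3 (limma, Benjamini-Hochberg adjusted p = 0.0068). Partners of Scribble and Discs large, with 10 profiles, gave 2 higher, 1 lower and 1 higher in the same order, with no other call. These are 20.0%, 10.0% and 10.0%, under the shares of all probe sets, 21.9%, 31.1% and 25.4%. Dlg4, a Discs large scaffold, was higher by 0.43 in Ind-8 than in Con-3 (limma, Benjamini-Hochberg adjusted p = 0.01). The Crumbs complex, with 13 profiles, gave 1, 3 and 2 calls, all lower. At 7.69%, 23.1% and 15.4% these too were under the shares of all probe sets. Mpdz, a PDZ scaffold of that complex, differed by -0.61 between tI-3 and Con-3 (limma, Benjamini-Hochberg adjusted p = 0.0013).

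Spindle orientation genes, with 16 profiles, gave 2 calls, both higher, for Ind-8 against Con-3, 4 higher and 1 lower for Ind-8 against tI-3, and 1 and 3 for tI-3 against Con-3. Ndel1, a dynein cofactor, read 10.90, 10.96 and 10.87 in Ind-8 and 10.39, 10.32 and 10.30 in Con-3. The lines did not overlap, at a difference of 0.57 (limma, Benjamini-Hochberg adjusted p = 0.0012). Numb partners and endocytic adaptors, with 13 profiles, gave 1 and 2, 4 and 1, and 1 and 4. Mdm2, a ubiquitin ligase that binds Numb and is itself a p53 target, read 10.79, 11.19 and 10.71 in Ind-8, 9.02, 8.79 and 8.87 in Con-3, and 9.67 and 9.56 in tI-3. The 3 lines did not overlap. Its differences were 2.00 for Ind-8 against Con-3, 1.28 for Ind-8 against tI-3 and 0.72 for tI-3 against Con-3, all called.

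Cell fate genes of the RNA-binding and TRIM families, with 11 profiles, gave 1 higher and 1 lower for Ind-8 against Con-3, 1 and 3 for Ind-8 against tI-3, and 3 and 1 for tI-3 against Con-3. Planar cell polarity genes, with 14 profiles, gave 3 and 1, 2 and 2, and 2 and 3. Prickle2, a cytoplasmic planar polarity protein, read 6.53, 6.83 and 6.18 in Ind-8, 4.95, 4.89 and 5.04 in Con-3, and 6.21 and 5.88 in tI-3. All Con-3 arrays were lowest, with differences of 1.56 for Ind-8 (limma, Benjamini-Hochberg adjusted p = 1.3e-04) and 1.09 for tI-3 (limma, Benjamini-Hochberg adjusted p = 0.0014). Fzd3, a Frizzled receptor, read 3.91, 3.85 and 3.89 in Ind-8 and 4.50, 4.48 and 4.60 in Con-3, at the dim end of the arrays. The lines did not overlap, at a difference of -0.64 (limma, Benjamini-Hochberg adjusted p = 6e-04). The named changes of these lists printed here are those called in every alternative fit that tested them, 16 for each gene but Fzd3, which the filter on dim probe sets removed, leaving 15. Counting markers, proliferation genes and label checks too, 15 of 21 called results of named genes were called in every alternative for Ind-8 against Con-3, 3 of 21 for Ind-8 against tI-3 and 9 of 22 for tI-3 against Con-3.

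Proliferation genes, given beside the members because the lines differ in them, had 12 profiles. limma called 11 of 12 lower in Ind-8 than in Con-3, against 11.0% of all probe sets, with a median difference of -0.55 over the list. It called 3 of 12 lower in tI-3 than in Con-3, against 15.1%, with a median of -0.18. It called 5 of 12 lower in Ind-8 than in tI-3, against 15.5%, with a median of -0.27. The rank product test called 1 lower for Ind-8 against Con-3 and 0 in the other comparisons. In the fit with the hybridization block, calls were counted over the marker and proliferation lists together. They numbered 2 for Ind-8 against tI-3, in place of 16, and 8 for tI-3 against Con-3, in place of 14. For Ind-8 against Con-3 they numbered 14, in place of 19. The mean of the proliferation genes was 10.38, 10.15 and 10.36 in Ind-8, 10.82, 10.78 and 10.84 in Con-3, and 10.61 and 10.56 in tI-3. Their part in the differences of the determinants was not tested.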

How the data were processed

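Total RNA of 8 cultures was measured on Affymetrix mouse arrays. The authors deposited RMA values on the log2 scale, normalized over the 8 arrays, with probe sets defined by RefSeq transcript. Values were used without renormalizing, and the 64 Affymetrix controls were not tested. Gene names are those of the RefSeq genes of GRCm38.p6, which matched 18294 of 22523 probe sets (81.2%). Arrays have no depth, and their number limits the precision. limma 3.58.1 in R 4.3.3 fitted 1 mean per line, two-sided, with p-values adjusted by Benjamini-Hochberg across the 22523 probe sets and called at 0.05. The rank product test was re-implemented, with 100 permutations and a percentage of false positives under 0.05. Both were run on simulated arrays with independent noise and changes in Ind-8 alone, and a minimum recovery was required of limma only. The simulated arrays held no shift with hybridization level or at the dim end, so they do not bear on those features. Python 3.11.15, numpy 2.4.6, pandas 2.3.3, scipy 1.17.1 and matplotlib 3.10.9 did the rest.

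Named genes are all members, the label checks, the called gene with the largest rise and the largest fall in each list and comparison, and the 5 genes most like the member with the smallest F test p. Those called outside the members are printed as changes only where every alternative fit that tested them called them. This restriction was chosen after the values were seen. For a listed gene with more than 1 profile, the profile with the largest absolute change stood for the gene. The members and lists were chosen with earlier results of these data known. Alternatives were quantile normalization, median centring, probe sets above the 25th percentile, identical values counted once, a trend in the prior, the compared lines only, a replicate block, the hybridization-control level as a block, each array left out, and a minimum log2 change of 1. Some were extended to the lists after seeing the data.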

Additional observations from a re-analysis of the deposited data

How the results depend on the processing

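Of the called member results under the 16 alternative fits and the minimum change, 129 kept direction and call, 58 kept direction without the call and 0 reversed. Among uncalled member results 349 stayed uncalled in the same direction, 2 became called and 23 changed sign. The cause of each change was not tested, except that fewer arrays or a stricter threshold follow from the alternative itself.

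The members called by limma for Ind-8 against Con-3 numbered 2. They were 0 after quantile normalization and 1 after median centring, with the hybridization block, with identical values counted once or with the compared lines only. With the replicate number as a replicate block the count was also 1. No label pairs arrays by number, and the same-number correlations of deviations from the line means were mixed, so the numbers were not read as pairs: 0.27, 0.029 and 0.381 for Ind-8 with Con-3, 0.009 and -0.225 for Ind-8 with tI-3, and 0.205 and 0.042 for Con-3 with tI-3. For Ind-8 against tI-3 the members numbered 5, with 3 after quantile normalization and 1 with the hybridization block. For tI-3 against Con-3 they numbered 4, with 1 under the hybridization block. A minimum log2 change of 1 left 0 in each comparison, since no member changed by that much. Leaving out 1 array gave 0 to 1, 2 to 6 and 1 to 4 members in these comparisons. Without a tI-3 array the remaining one is assumed to vary like the other lines. The rank product test called 0 members in every alternative run with it, with unadjusted counts in the report.

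Pathway list calls for Ind-8 against Con-3 (23) were 15 to 24 with 1 array left out. For Ind-8 against tI-3 (34) they were 19 to 34, and 3 with the hybridization block. For tI-3 against Con-3 (36) they were 20 to 35, and 17 with that block. The marker and proliferation lists had 2 calls with the block for Ind-8 against tI-3, and for tI-3 against Con-3 8 with the block and 9 to 15 with 1 array left out. Over all probe sets, Ind-8 against tI-3 (7009) gave 708 with the block and 2781 to 7261 with 1 array left out, and tI-3 against Con-3 (5715) gave 3066 and 3093 to 5625. The block rests Ind-8 against tI-3 on Con-3 replicate 3 as the only link, and sets tI-3 against that Con-3 array alone.

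Results that changed sign were all uncalled. For Ind-8 against Con-3, quantile normalization gave -0.02 for Pard6a and -0.04 for Pard6g, median centring gave 0.00 for Pard6g and the hybridization block -0.12 for Pard6g. With 1 array left out the values ran from -0.09 to 0.04 for Numb, -0.06 to 0.09 for Pard6a, -0.12 to 0.09 for Pard6g, -0.20 to 0.03 for Prkci, -0.15 to 0.00 for Scrib and -0.13 to 0.08 for Gpsm2. For Ind-8 against tI-3 the block gave 0.07 for Llgl1 and quantile normalization -0.09 for Mt1, and leaving out arrays gave -0.23 to 0.00 for Numb and -0.11 to 0.04 for Llgl1. For tI-3 against Con-3 quantile normalization gave 0.00 for Numbl, 0.04 for Pard3 NM_001013580 and 0.20 for Mt1. Leaving out arrays gave -0.01 to 0.22 for Numb, -0.27 to 0.05 for Numbl, -0.15 to 0.03 for Pard3 NM_001013580, -0.02 to 0.11 for Scrib and -0.26 to 0.04 for Mt1. Some alternatives for the lists and named genes were added after seeing the data. The Ind-8 mean of Prkcz, 4.28, lay under the first quartile of all probe sets, 4.30.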

Other observations

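Among 13 fibroblast marker profiles limma called 3 higher and 1 lower for Ind-8 against Con-3. It called 5 and 1 for Ind-8 against tI-3, and 5 and 3 for tI-3 against Con-3. These counts come from the fit without the hybridization block. With it the marker and proliferation lists together had 2 calls for Ind-8 against tI-3 and 8 for tI-3 against Con-3. Without it they had 16 and 14. Col3a1 read 7.91, 9.32 and 9.18 in Ind-8, 8.59, 9.37 and 9.25 in Con-3, and 6.26 and 6.51 in tI-3, so that both tI-3 arrays were the lowest. Its difference between tI-3 and Con-3 was -2.68 (limma, Benjamini-Hochberg adjusted p = 6.2e-04). Of 8 epithelial profiles 1 was called in each comparison of Ind-8, namely Krt19, higher in Ind-8. Krt19 read 10.09, 10.47 and 10.48 in Ind-8, 9.14, 9.79 and 9.63 in Con-3, and 9.32 and 9.30 in tI-3, so that Ind-8 lay above both other lines. Its difference from Con-3 was 0.82, called in all 16 alternatives (limma, Benjamini-Hochberg adjusted p = 0.0056). The call against tI-3 was lost with the hybridization block (limma, Benjamini-Hochberg adjusted p = 0.077). For tI-3 against Con-3 limma and the rank product test each called 0 epithelial profiles, with 3 and 1 at an unadjusted p under 0.05. Among 7 neural profiles 1 was called in each comparison (14.3%), and none of these was called in every alternative. Among 6 haematopoietic and endothelial profiles 2, 3 and 2 were called (33.3%, 50.0% and 33.3%). Over all probe sets the shares called were 21.9%, 31.1% and 25.4%. Cd34 read 7.70, 7.85 and 7.69 in Ind-8, 8.04, 9.00 and 8.63 in Con-3, and 6.87 and 6.89 in tI-3, without overlap. Its differences of -0.81 for Ind-8 against Con-3 (limma, Benjamini-Hochberg adjusted p = 0.013) and -1.68 for tI-3 against Con-3 (limma, Benjamini-Hochberg adjusted p = 4.7e-04) were called in all 16 alternatives. The part of these marker differences in those of the determinants was not tested.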
